A study of Homo sapiens with 8 samples.

Results

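The genes described here encode the parts of the motile cilium and its axoneme, the microtubule core that beats. They were taken by symbol: every protein-coding GENCODE gene named as an axonemal dynein heavy chain (DNAH), intermediate or light chain (DNAI, DNAL), dynein arm assembly factor (DNAAF1 to DNAAF5), radial spoke protein (RSPH), numbered cilia- and flagella-associated protein (CFAP) or tektin (TEKT), plus CCDC39, CCDC40, CCDC103, CCDC114, SPAG6, SPAG16, SPAG17, HYDIN, DRC1, DRC3, FOXJ1, ZMYND10, LRRC6, PIH1D3 and ARMC4. This gave 83 of the 60668 gene identifiers in the count files, with 82 symbols, because CCDC39 stands under 2 identifiers. The symbol rule itself names no measured value, but it was written with earlier results of these data known.

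D283-OMO is a derivative of the D283 Med medulloblastoma line, stably transduced with a lentiviral, doxycycline-inducible, Flag-tagged OMOMYC transgene and selected with hygromycin. OMOMYC is a dominant negative form of MYC. PolyA+ RNA of 4 untreated samples (OMO) and 4 samples given doxycycline for 72 h to induce OMOMYC (OMO+DOX) was sequenced, and the study described the replicates as biological. All 8 libraries carry the transgene, and no doxycycline-treated line without it was analysed here, so doxycycline and OMOMYC cannot be told apart.

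In a motile cilium, a ring of doublet microtubules surrounds a central pair. Outer and inner dynein arms, large motors built around DNAH heavy chains, slide the doublets, and they are put together in the cytoplasm by a separate set of assembly factors before they are carried into the cilium. Radial spokes, the nexin-dynein regulatory complex and the central pair control the beat, while the transcription factor FOXJ1, with factors of the RFX family, turns on the whole gene set in ependymal, airway and other multiciliated cells. The primary cilium that many other cells carry, neural progenitors among them, does not beat but shares the intraflagellar transport and transition zone machinery.

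Expected counts summed per library came to between 38390696 and 54020506. Correlations of log2 levels, as counts per 1e6 counts of the library (CPM), were 0.992 to 0.998 within OMO, 0.996 to 0.998 within OMO+DOX and 0.893 to 0.909 between the groups. Of 10 Group 3 and 4 and neural markers 7 were tested, 2 higher and 5 lower at an edgeR adjusted p below 0.05. At that threshold 38.5% of all genes tested were higher and 38.1% lower. OTX2 averaged 1049 CPM in OMO and 510 CPM in OMO+DOX, MYC 939 and 1123, NPR3 610 and 103, IMPG2 473 and 58.7, NEUROD1 94.4 and 20.2 and NES 59.8 and 225 CPM. EOMES was low (0.264 and 0.777 CPM, without overlap), and LMX1A and BARHL1 were near 0. Markers of cells that carry motile cilia were mixed. Of 11 ependymal and choroid plexus markers, SOX9 (90.6 and 12.2 CPM), FOLR1 (40.1 and 45.3 CPM), TTR (3.40 and 5.67 CPM) and KCNJ13 (5.92 and 0.869 CPM) were detected. AK7 (1.58 and 1.02 CPM) and CCDC153 (0.929 and 1.20 CPM) were detected at lower levels. CLIC6 went from 0.00508 to 0.413 CPM without overlap. AQP4 (0.0413 and 0.155 CPM, without overlap) and S100B (0.117 and 0.222 CPM, with overlap) were low. The ependymal genes TMEM212 and RIBC2 were at or near 0. Over that list 6 genes were tested, 1 rose and 3 fell (all genes 38.5% and 38.1%). The summed level was 136 to 148 CPM in OMO and 62.1 to 70.4 CPM in OMO+DOX. Without SOX9 the sum was 52.1 ± 4.53 and 54.9 ± 4.28 CPM. The list's part in the results was not tested. Of 16 photoreceptor markers, the outer segment of those cells being a modified cilium, 9 were tested, 1 rose and 8 fell (all genes 38.5% and 38.1%). Of 12 germ cell and sperm markers 2 were tested and both fell, where 38.1% of all genes fell. They were AKAP4 (1.66 and 0.297 CPM) and MAEL (1.69 and 0.679 CPM). Both were over 1 CPM only in OMO libraries, so they entered the test through the group where they are high. SYCP3 (0.228 and 0.618 CPM) and DDX4 (0.0652 and 0.233 CPM), too low to test, were higher in OMO+DOX without overlap. The sperm genes PRM1, PRM2, TNP1 and ODF1 and the airway gene SCGB1A1 had no count in any library. In bulk RNA, fewer cells that express a gene and less RNA per cell cannot be told apart.

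Most axonemal genes were scarce. Only 33 of the 83 passed the filter on low counts, which asked for over 1 CPM in 4 or more libraries, 39.8% against 65.2% of all protein-coding genes, and 44 stayed at or under 1 CPM in every library before TMM scaling (43 after). PIH1D3, CFAP52 and TEKT1 had no count at all, and 9 genes, these among them, were at or under 3 counts in each library of both groups. At the other end, 14 genes averaged over 10 CPM in at least 1 group. Per kilobase of exon, the highest levels in OMO were those of CFAP36 (10.2 CPM per kb), CFAP97 (10.1) and DNAAF2 (10.1). The summed level of all 83 genes was 382 ± 8.86 CPM in OMO and 394 ± 9.26 CPM in OMO+DOX (SD, n = 4 each), and the values of the 2 groups overlapped.

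**Figure D1:**
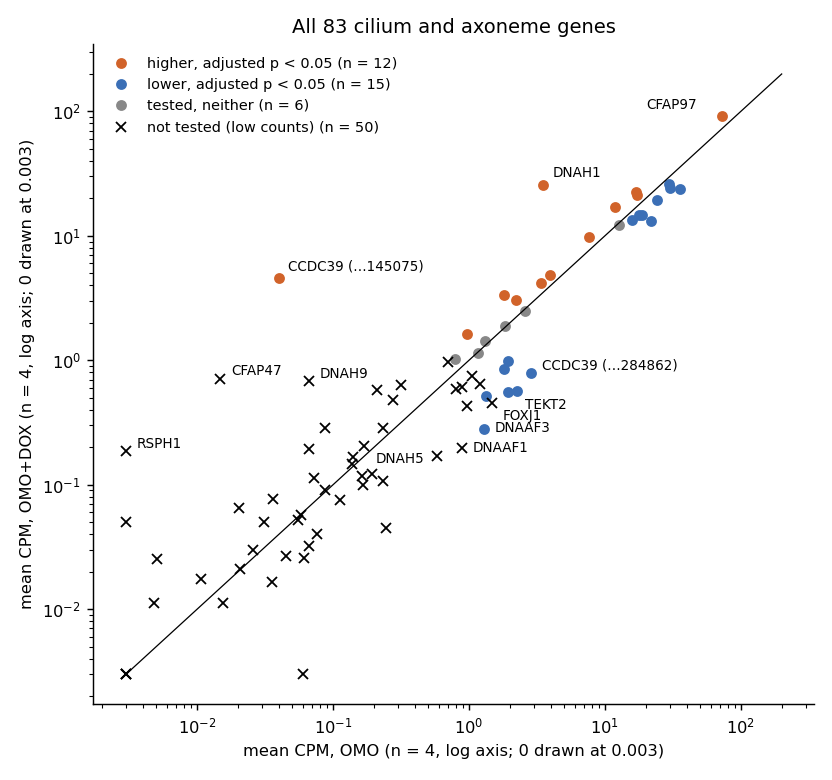
Mean CPM of each of the 83 genes in OMO (x axis) and OMO+DOX (y axis), 4 libraries each, on log axes. The 50 crosses are genes too low to test, and CCDC39 (ENSG00000145075) and DNAH1 lie farthest above the diagonal among those tested.

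Differential expression was tested with edgeR's quasi-likelihood test over 15222 genes. At a Benjamini-Hochberg adjusted p below 0.05, 12 of the 33 genes rose with OMOMYC induction and 15 fell, while 6 did neither. The rises (36.4%) were near the background, since 38.5% of all genes tested rose, and the falls were 45.5% against 38.1%. By the stricter rule of adjusted p below 0.001 and a log2 fold change beyond 2 either way, DNAH1 and CCDC39 (ENSG00000145075) were higher and DNAAF3 lower, where 4.38% of all genes were called higher and 2.75% lower. The 4 values of one group lay wholly above those of the other for 11 genes that were higher (33.3%, all genes 36.3%) and for 14 that were lower (42.4%, all genes 35.4%). The median log2 fold change of the 33 was -0.06, against 0.01 for all genes. Of the 33 genes, 9 exceeded 1 CPM in every library of a single group and so passed the filter through the side where they are high. Among the 23 above 1 CPM in all 8 libraries 10 rose and 8 fell, 43.5% and 34.8%, against 37.0% and 38.9% of the 13655 genes that meet the same condition.

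**Figure D2:**
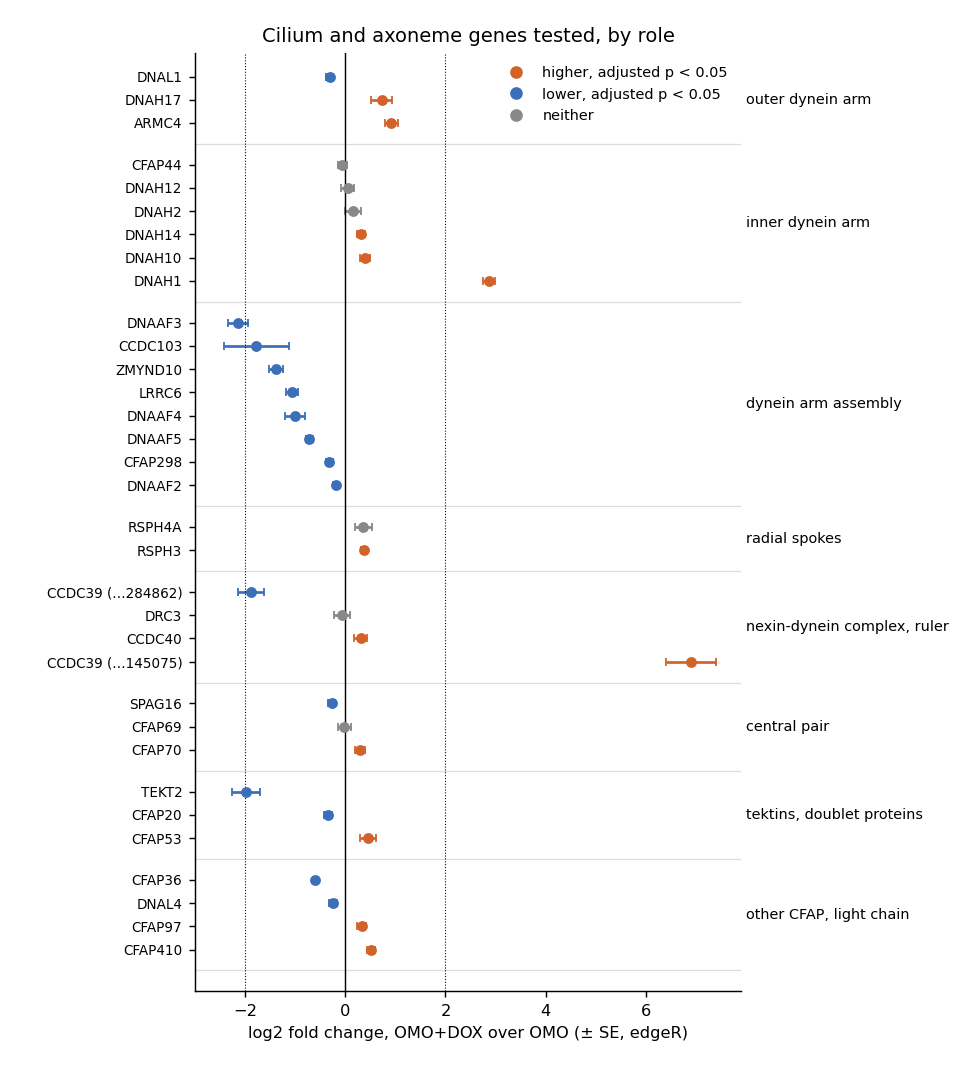
Fold changes (log2, OMO+DOX over OMO) with SE for the 33 genes tested, grouped by role; dotted lines mark a log2 fold change of -2 and 2. All 8 dynein arm assembly factors lie left of 0, and no dynein heavy chain (DNAH) tested does. DNAAF3, ZMYND10, LRRC6, DNAAF4, TEKT2 and CCDC39 (ENSG00000284862) passed the filter through the OMO libraries, where they are high. DNAH17, RSPH4A and CCDC39 (ENSG00000145075) passed it through the OMO+DOX libraries.

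Of the 13 DNAH heavy chain genes of the dynein motors 6 were tested, of which 4 rose and none fell, where 38.5% of all genes rose and 38.1% fell. Without DNAH17, which passed the filter through the OMO+DOX libraries where it is high, 3 of 5 rose. DNAH1 (ENSG00000114841), a heavy chain of the inner arms known for its part in the sperm flagellum, measured 4.33, 3.70, 2.60 and 3.47 CPM in OMO replicates 1 to 4. In OMO+DOX it measured 27.6, 26.6, 25.5 and 23.4 CPM. Every treated library lay far above every untreated one, and the replicates of a group stayed close together. The rise was 7.31-fold in mean CPM (log2 fold change 2.87 ± 0.12, SE, edgeR adjusted p = 1.01e-09). DNAH1 kept the stricter call in every alternative fit run, shares no exon with another annotated gene and had whole-number counts, so none of its reads were divided among genes.

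The other heavy chains that were tested moved less. DNAH17, an outer arm chain of sperm, lay between 0.650 and 1.26 CPM in OMO and between 1.37 and 2.14 CPM in OMO+DOX, without overlap (log2 fold change 0.72 ± 0.21, edgeR adjusted p = 0.00704). DNAH10 and DNAH14 were better expressed, at 16.9 ± 1.53 and 17.1 ± 1.22 CPM in OMO, and rose to 22.4 ± 3.27 and 21.2 ± 2.07 CPM, also without overlap. DNAH10 shares 975 exonic bases on the opposite strand with CCDC92 and 1800 with DNAH10OS, both of which rose as well. DNAH2 (1.30 and 1.44 CPM) and DNAH12 (1.83 and 1.89 CPM) did not pass the test, and their groups overlapped. Summed over all 13 heavy chains, the level was 44.2 ± 3.30 CPM in OMO and 77.6 ± 6.56 CPM in OMO+DOX, most of the gain being that of DNAH1. The heavy chains are very long genes, and long genes leaned the same way: of 1727 tested genes with more than 10000 exonic bases 49.4% rose and 28.2% fell, with a median log2 fold change of 0.18. The part of length in the heavy chain values was not tested.

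The remaining heavy chains were too low for the test and are given with the fit that applied no filter on low counts, in which 10.7% of the 21659 genes outside the main test were higher and 6.82% lower at an adjusted p below 0.05. DNAH9, an outer arm chain of airway and ependymal cilia, measured 0.143, 0.0581, 0.0203 and 0.0448 CPM in OMO and 0.631, 0.797, 0.665 and 0.616 CPM in OMO+DOX. All treated libraries exceeded all untreated ones, from counts of 1 to 7 per library to counts of 28 to 34 (log2 fold change 3.26 ± 0.37, edgeR adjusted p = 1.03e-08). DNAH11 (0.210 to 0.574 CPM) and DNAH6 (0.0873 to 0.285 CPM) were higher too. DNAH5, the outer arm chain most often mutated in primary ciliary dyskinesia, went the opposite way, from 0.580 ± 0.0961 to 0.171 ± 0.164 CPM (log2 fold change -1.75 ± 0.37, edgeR adjusted p = 0.000245), and its value in OMO+DOX replicate 1, 0.414 CPM, stood well above the other 3 treated libraries. DNAH7, DNAH8 and DNAH3 did not pass in that fit.

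Among the partners of the motors, ARMC4, part of the docking complex that fixes outer arms to the doublet, measured 2.09, 1.53, 1.86 and 1.71 CPM in OMO and 3.47, 3.12, 3.95 and 2.94 CPM in OMO+DOX. The groups did not overlap (log2 fold change 0.92 ± 0.13, edgeR adjusted p = 5.02e-05), although part of its reads were divided among genes in all 8 libraries. The outer arm light chain DNAL1 fell from 30.1 ± 1.65 to 24.4 ± 2.28 CPM and the light chain DNAL4 from 15.7 ± 1.76 to 13.3 ± 0.642 CPM. With libraries scaled by their size alone DNAL4 did not pass (adjusted p = 0.169). The outer arm intermediate chains were hardly transcribed, with DNAI1 at 0.0720 and 0.113 CPM and DNAI2 at 0.0107 and 0.0173 CPM in OMO and OMO+DOX. The intermediate chains, which hold the outer arm together at its base, were thus near 0 in both groups.

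Among the assembly factors every gene tested was lower. Of 11 genes 8 were tested and all 8 fell, 7 of them without overlap between the groups, with a median log2 fold change of -1.03. As DNAAF3, ZMYND10, LRRC6 and DNAAF4 passed the filter through the untreated libraries, where they are high, nothing is read from that count. The other 4 (DNAAF5, CFAP298, DNAAF2 and CCDC103) also fell, 3 of them without overlap, with a median of -0.52, and 38.1% of all genes fell. CCDC103, too, passed the filter mostly through untreated libraries (OMO replicates 2 to 4), so that median keeps part of the same limit. DNAAF5, CFAP298 and DNAAF2, over 1 CPM in all 8 libraries, had log2 fold changes of -0.72, -0.32 and -0.19. These roles were assigned with earlier results of these data known. The summed level of the 11 went from 85.04 ± 4.35 to 62.2 ± 3.13 CPM. DNAAF3, a cytoplasmic factor needed for both inner and outer arms, measured 1.07, 1.38, 1.34 and 1.32 CPM in OMO and 0.375, 0.174, 0.332 and 0.242 CPM in OMO+DOX. The lowest untreated library was far above the highest treated one. The fall was 4.55-fold (log2 fold change -2.15 ± 0.20, edgeR adjusted p = 1.38e-06), and it lost the stricter call without OMO+DOX replicate 2 and failed the filter when an OMO library was left out and the filter applied again.

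ZMYND10 and LRRC6, which bind each other and act in the same step, fell together. ZMYND10 lay between 1.25 and 1.38 CPM in OMO and between 0.440 and 0.587 CPM in OMO+DOX (log2 fold change -1.38 ± 0.14, edgeR adjusted p = 2.44e-06). LRRC6 lay between 1.72 and 1.89 CPM and between 0.769 and 0.977 CPM (log2 fold change -1.07 ± 0.12, edgeR adjusted p = 6.66e-06). For both, the spread within a group was small against the gap between groups. DNAAF4, a co-chaperone, fell from 1.94 ± 0.107 to 0.983 ± 0.311 CPM. It shares 1184 of its 2934 exonic bases on the same strand with DNAAF4-CCPG1, which went from 0.176 to 0.569 CPM. Part of the DNAAF4 reads were divided among genes in 3 libraries, and the part of DNAAF4-CCPG1 was not tested.

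The better expressed assembly factors fell by smaller amounts. DNAAF5, a HEAT-repeat protein of preassembly, measured 21.8, 21.3, 23.2 and 20.8 CPM in OMO and 13.7, 11.6, 13.3 and 14.2 CPM in OMO+DOX, with no overlap (log2 fold change -0.72 ± 0.07, edgeR adjusted p = 1.43e-06). It shares 383 exonic bases on the opposite strand with PRKAR1B, which went from 6.27 to 1.097 CPM. CFAP298 fell from 24.1 ± 1.93 to 19.3 ± 1.05 CPM and DNAAF2, a partner of HSP90, from 29.8 ± 1.29 to 26.2 ± 0.755 CPM. CFAP298 shares 800 of its 3353 exonic bases on the same strand with AP000275.2, which went from 8.22 to 6.50 CPM. Part of the CFAP298 reads were divided among genes in all 8 libraries. The call on DNAAF2 was lost when libraries were scaled by their size alone (adjusted p = 0.218), a scaling that raised the fold changes of all genes by 0.126 on the log2 scale. CCDC103 was the exception in its spread, at 0.253 CPM in OMO replicate 1 against 2.12 to 2.78 CPM in the others, so that its groups overlapped (log2 fold change -1.77 ± 0.65, edgeR adjusted p = 0.0258). It shares 3459 of its 3895 exonic bases with FAM187A on the same strand and lost the call without OMO+DOX replicate 1 (adjusted p = 0.0787), without OMO+DOX replicate 2 (0.0813), and, with the same genes tested, without OMO replicate 2 (0.0509) or OMO replicate 4 (0.0584).

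DNAAF1, below the filter, measured 0.898, 0.987, 0.671 and 1.01 CPM in OMO and 0.197, 0.149, 0.215 and 0.220 CPM in OMO+DOX, again without overlap (log2 fold change -2.19 ± 0.27, edgeR adjusted p = 3.48e-08, no filter). It shares 450 exonic bases on the opposite strand with TAF1C, which went from 131 to 31.3 CPM. The libraries were made with a stranded kit, but the strand setting of the counting is not given in the sources used here, and the part of TAF1C reads was not tested. CFAP300 (0.170 and 0.203 CPM) did not pass in that fit.

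**Figure D3:**
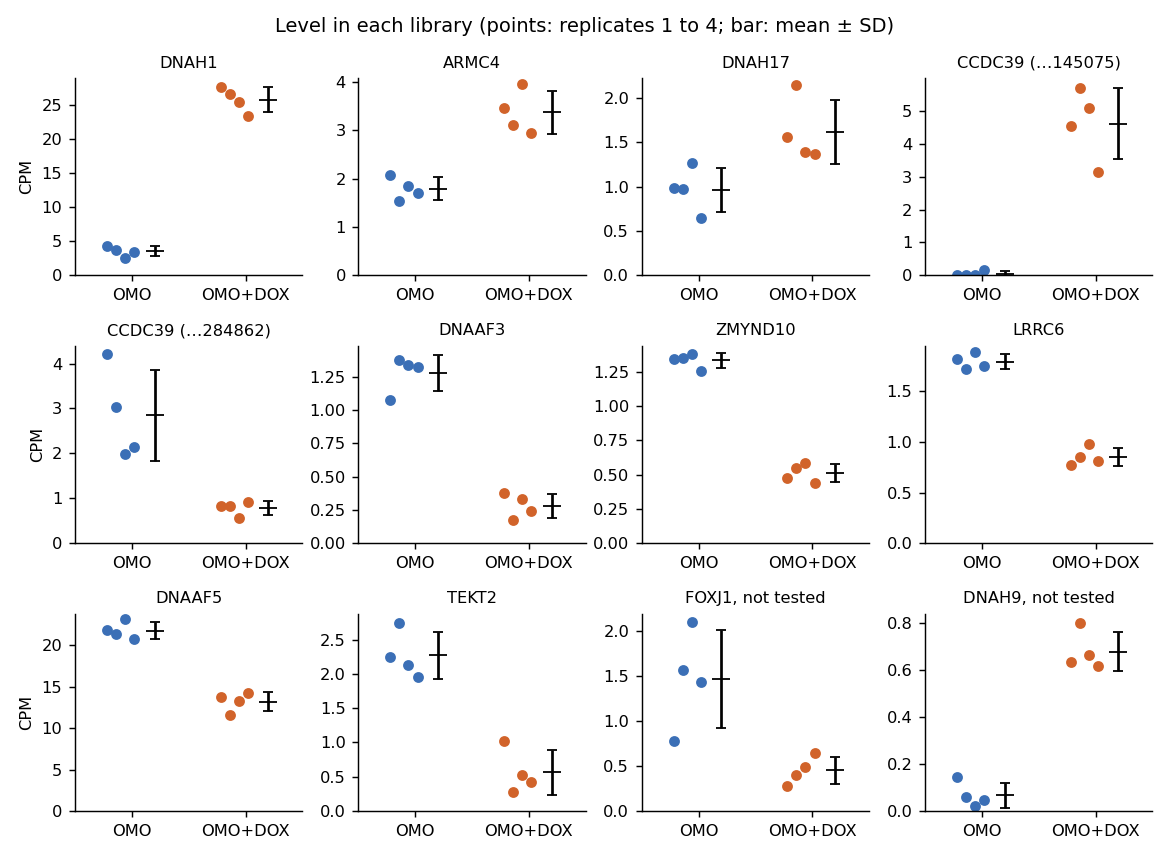
CPM in each of the 8 libraries for 12 genes, with mean and SD beside the 4 points of each group; every vertical axis starts at 0. DNAH1, ARMC4, DNAH17 and DNAH9 are higher in all OMO+DOX libraries, DNAAF3, ZMYND10, LRRC6, DNAAF5, TEKT2 and FOXJ1 lower.

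FOXJ1, the transcription factor of motile ciliogenesis, stood just outside the filter with more than 1 CPM in 3 libraries. It measured 0.775, 1.57, 2.09 and 1.43 CPM in OMO and 0.276, 0.399, 0.489 and 0.638 CPM in OMO+DOX. The highest treated library stayed below the lowest untreated one (log2 fold change -1.73 ± 0.26, edgeR adjusted p = 1.75e-06, no filter). Of 22 other regulators of ciliogenesis and centriole amplification 16 were tested, 5 of which rose and 8 fell (31.2% and 50%, all genes 38.5% and 38.1%). TP73, whose product acts upstream of FOXJ1 in multiciliated cells, fell from 26.9 to 4.96 CPM (log2 fold change -2.43 ± 0.07) and RFX2 from 2.60 to 1.26 CPM (-1.04 ± 0.13). RFX3, the RFX gene best known in cilia, was at 66.2 and 60.8 CPM and did not pass (edgeR adjusted p = 0.264). CEP152, a centriole scaffold, rose from 34.0 to 107 CPM and the forkhead factor FOXN4, which takes part in multiciliation, from 4.63 to 10.3 CPM (1.15 ± 0.10). The centriole genes PLK4 (32.5 and 18.1 CPM), STIL (31.5 and 14.2 CPM) and SASS6 (23.5 and 16.6 CPM) of the same list fell. CCNO, at 0.0203 and 0.236 CPM without overlap, was too low to test. The multiciliation switches MCIDAS (0.00994 and 0.149 CPM, without overlap) and GMNC (0.0407 and 0.0425 CPM, with overlap) were hardly detected.

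Binding motifs of such factors were looked for in RefSeq promoters (GRCh38.p14), the 250 bases before to 50 after the annotated start, which were found for 67 of the 83 genes. The left part of the X-box bound by RFX factors, GTTGCCA on either strand, occurred in 20 of the 67 (29.9%), against 4.08% of all 35116 promoters and 4.01% of those of protein-coding genes. The E-box CACGTG, the site of MYC and MAX, occurred in 5 (7.46%), against 7.26% of all promoters, and the forkhead motif GTAAACA in 4 (5.97%), against 3.42%. The X-box part stood in 4 of 10 promoters of genes that rose and in 4 of 10 of genes that fell, so its presence did not follow the direction of change. The 3 motifs have no letters that overlap in the 4 promoters below, which are shown because they belong to the largest clean rise, to the CCDC39 identifier that fell, and to a pair of well-expressed assembly factors that fell, 1 with an X-box part and 1 with an E-box. Capitals mark the motif matches.
DNAH1: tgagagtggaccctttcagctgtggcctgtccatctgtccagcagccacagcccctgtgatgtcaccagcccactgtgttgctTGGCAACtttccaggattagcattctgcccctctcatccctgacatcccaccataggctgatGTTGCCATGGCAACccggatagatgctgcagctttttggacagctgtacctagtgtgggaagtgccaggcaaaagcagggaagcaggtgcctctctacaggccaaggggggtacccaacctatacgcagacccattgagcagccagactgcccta
CCDC39: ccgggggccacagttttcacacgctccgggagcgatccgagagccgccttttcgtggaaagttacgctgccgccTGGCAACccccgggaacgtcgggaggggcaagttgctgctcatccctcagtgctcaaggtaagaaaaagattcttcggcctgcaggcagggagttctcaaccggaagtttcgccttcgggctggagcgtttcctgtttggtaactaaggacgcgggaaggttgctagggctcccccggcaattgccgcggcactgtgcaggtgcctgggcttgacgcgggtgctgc
CFAP298: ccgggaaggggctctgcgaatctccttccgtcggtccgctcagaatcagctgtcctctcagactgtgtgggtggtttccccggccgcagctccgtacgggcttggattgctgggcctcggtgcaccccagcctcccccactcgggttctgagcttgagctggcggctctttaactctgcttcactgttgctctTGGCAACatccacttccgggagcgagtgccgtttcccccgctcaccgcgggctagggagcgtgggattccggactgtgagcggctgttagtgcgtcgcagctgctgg
DNAAF5: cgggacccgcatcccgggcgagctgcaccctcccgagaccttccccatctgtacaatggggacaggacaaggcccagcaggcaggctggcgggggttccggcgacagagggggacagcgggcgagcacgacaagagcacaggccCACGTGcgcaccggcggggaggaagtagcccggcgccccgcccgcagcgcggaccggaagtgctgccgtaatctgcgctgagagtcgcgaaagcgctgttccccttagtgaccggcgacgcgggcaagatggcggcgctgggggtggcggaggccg
The DNAH1 promoter lies at chr3:52316069-52316368 on the plus strand. Its 3 matches to the X-box part begin at -167, -105 and -98 from the start, and the latter pair lie side by side on opposite strands and form a palindrome, which is the shape of a full X-box. In CCDC39 (chr3:180679440-180679739, minus strand) the match begins at -176 and in CFAP298 (chr21:32612328-32612627, minus strand) at -57. The DNAAF5 promoter (chr7:726449-726748, plus strand) has the E-box at -106 and no X-box part. A match describes the letters and does not show that a factor binds.

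CCDC39, which with CCDC40 forms the ruler that sets the repeat of the axoneme, gave opposite results under its identifiers. ENSG00000145075 (chr3:180614008-180870933, minus strand) had 0 counts in OMO replicates 1 to 3 and 7.1 expected counts in replicate 4. In OMO+DOX it measured 4.54, 5.70, 5.08 and 3.15 CPM. The identifier was thus almost silent without doxycycline and detected in every treated library (log2 fold change 6.90 ± 0.50, edgeR adjusted p = 1.28e-07). Its size rests on OMO replicate 4, without which the log2 fold change was 10.79, against 6.46 to 7.04 without any other library. The stricter call was lost where the filter left the identifier out, that is with the filter of more than 4 libraries or when an OMO+DOX library was left out and the filter applied again. The submitters' own gene table types it as lncRNA, while GENCODE 29 types it protein-coding, so that under the former it would fall outside the rule. ENSG00000284862 (chr3:180602858-180679500, minus strand) measured 4.20, 3.04, 1.99 and 2.15 CPM in OMO and 0.836, 0.827, 0.555 and 0.919 CPM in OMO+DOX, lower without overlap (log2 fold change -1.87 ± 0.26, edgeR adjusted p = 3.81e-05). Each identifier passed the filter on low counts through the group where it is high.

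The pair share 3001 exonic bases on the same strand, and RSEM divides such reads by a model. Their annotated starts are 191.4 kb apart, and the RefSeq promoter shown belongs to the one that fell. A lincRNA on the same strand, AC108734.4, shares 1145 bases with ENSG00000145075 and went from 0 to 5.04 CPM. With the counts of both identifiers summed, CCDC39 rose from 2.89 ± 0.982 to 5.40 ± 1.02 CPM (log2 fold change 0.90 ± 0.21, edgeR adjusted p = 0.00232). The groups of that sum overlapped, with OMO replicate 1 at 4.20 CPM and OMO+DOX replicate 4 at 4.07 CPM. CCDC40, its partner, was at 3.36 ± 0.369 and 4.17 ± 0.671 CPM (log2 fold change 0.31 ± 0.13, edgeR adjusted p = 0.0473), with overlapping groups, and the call was lost when any OMO replicate or OMO+DOX replicate 2 or 4 was left out (adjusted p 0.0547 to 0.149). DRC3 of the nexin-dynein complex did not pass (2.60 and 2.48 CPM) and DRC1 was near 0.

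In the radial spokes 2 of 10 genes were tested. RSPH3, a protein of the spoke stalk, rose from 7.61 ± 0.433 to 9.86 ± 0.210 CPM without overlap (log2 fold change 0.37 ± 0.06, edgeR adjusted p = 0.000234). RSPH4A, of the spoke head, sat just inside the filter with more than 1 CPM in 4 libraries, at 0.793 ± 0.199 and 1.03 ± 0.0587 CPM, and did not pass (adjusted p = 0.0846), although without OMO replicate 2 it did (0.0451). RSPH9, another head protein, was just outside it at 1.20 and 0.650 CPM and lower in the fit without a filter. It shares 604 of its 2631 exonic bases on the opposite strand with MRPS18A, which went from 64.5 to 39.8 CPM. Part of the RSPH9 reads were divided among genes in 8 libraries, and the part of MRPS18A was not tested. RSPH1 had no count in the 4 untreated libraries and 12, 5, 6 and 12 counts in the treated ones, at least 3.0-fold higher against a floor of 3 counts per library. It shares 97 exonic bases on the opposite strand with SLC37A1, which went from 0.00968 to 10.8 CPM, and the part of that gene was not tested.

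In the central pair, the hub that signals to the spokes, 3 of 13 genes were tested. SPAG16 fell slightly, from 17.9 ± 1.47 to 14.8 ± 0.417 CPM (log2 fold change -0.27 ± 0.06, edgeR adjusted p = 0.00203), a call lost with scaling by library size alone (adjusted p = 0.0515). CFAP70 rose from 3.96 to 4.87 CPM and CFAP69 did not pass (1.16 and 1.15 CPM). CFAP47 on the X chromosome had counts of 0, 2, 1 and 0 in OMO and 38, 30, 32 and 33 in OMO+DOX. Every treated library was above every untreated one, and the ratio of pooled, depth-scaled counts was 46.0 (exact 95% interval 15.4 to 226, counting error only). HYDIN was at 0.0663 and 0.193 CPM, with reads divided among genes in 7 libraries, and CFAP65 went from 0.244 to 0.0448 CPM.

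Of the tektins, filament proteins inside the doublets, 1 of 5 was tested. TEKT2 measured 2.24, 2.75, 2.13 and 1.95 CPM in OMO and 1.03, 0.274, 0.528 and 0.418 CPM in OMO+DOX. All treated libraries lay below all untreated ones, replicate 1 being the highest of the treated (log2 fold change -1.98 ± 0.28, edgeR adjusted p = 4.73e-05). TEKT2 passed the filter on low counts through the OMO libraries, where it is high. TEKT5 was also lower in the fit without a filter (0.962 and 0.426 CPM), while TEKT3 and TEKT4 did not pass there. CFAP20, which joins the tubules of a doublet, fell from 18.6 ± 1.502 to 14.6 ± 1.09 CPM. CFAP53 rose from 2.20 to 3.05 CPM (log2 fold change 0.46 ± 0.16, edgeR adjusted p = 0.0197) and lost the call without OMO replicate 4 (0.0740) and, with the same genes tested, without OMO+DOX replicate 2 (0.0609).

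The remaining well-expressed members changed moderately. CFAP36 fell from 35.7 ± 1.23 to 23.7 ± 1.19 CPM (log2 fold change -0.60 ± 0.05, edgeR adjusted p = 5.66e-07), CFAP410 rose from 11.96 ± 0.883 to 17.1 ± 1.92 CPM and CFAP97 from 72.9 ± 9.28 to 91.5 ± 6.72 CPM, all without overlap. CFAP410, a protein of the cilium base, shares 2788 exonic bases on the opposite strand with AP001062.1, which rose as well. In the fit without a filter, 9 of the 47 untested genes with any count were higher and 7 lower, where 10.7% and 6.82% of all genes outside the main test were. The higher ones were DNAH6, DNAH9, DNAH11, DNALI1, CFAP47, CFAP58, CFAP126, RSPH1 and HYDIN, and the lower ones FOXJ1, DNAAF1, DNAH5, RSPH9, TEKT5, CFAP65 and CFAP161, the levels of CFAP126 and CFAP161 being at most a few counts per library.

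Genes of cilia outside the symbol rule were counted by function. Of 39 other axonemal and motile cilium genes 13 were tested, 3 of which rose and 6 fell (23.1% and 46.2%, all genes 38.5% and 38.1%). The largest fall was that of IQCD, a protein of the nexin-dynein complex, from 2.54 to 0.960 CPM. Intraflagellar transport, the traffic that builds primary and motile cilia alike, was fully expressed, with all 32 genes tested, 5 higher and 21 lower (15.6% and 65.6%, all genes 38.5% and 38.1%). WDR34, a chain of the dynein-2 motor, fell from 93.8 to 23.7 CPM (log2 fold change -1.98 ± 0.10) and IFT122 from 41.6 to 11.5 CPM (-1.85 ± 0.06). KIFAP3, of the kinesin-2 motor, rose from 42.6 to 98.4 CPM and the dynein-2 chain DYNC2LI1 from 13.7 to 29.2 CPM. Of 28 BBSome and transition zone genes, which gate the cilium base, 27 were tested, 4 higher and 17 lower (14.8% and 63.0%, all genes 38.5% and 38.1%). The largest rise in that list was that of the transition zone gene TMEM67, from 31.1 to 258 CPM (log2 fold change 3.05 ± 0.06, edgeR adjusted p = 1.41e-12).

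**Figure D4:**
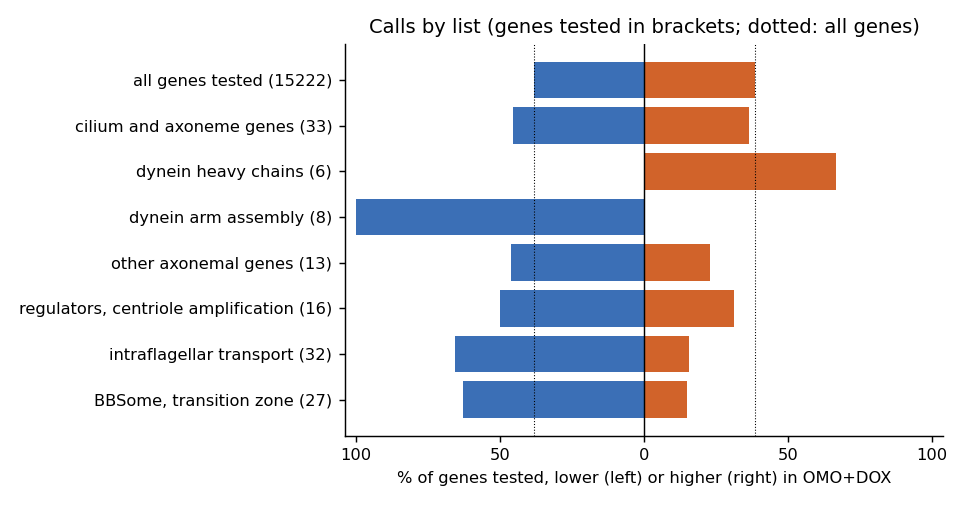
Share of tested genes lower (left) and higher (right) in OMO+DOX at an adjusted p below 0.05, by list, with the number tested in brackets; dotted lines mark all 15222 genes. The assembly factors reach 100% lower, the heavy chains 66.7% higher, and the transport and transition zone lists are mostly lower. The shares of assembly factors and heavy chains include genes that passed the filter through the group where they are high, so nothing is read from them.

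A further 13 protein-coding genes carry a fitting symbol only under newer names. Of these 4 were tested, with CFAP418 higher (17.4 to 34.0 CPM) and CFAP92, CFAP68 and CFAP119 lower, the last from 3.22 to 1.39 CPM. Among all genes tested 38.5% were higher and 38.1% lower.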

How the data were processed

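PolyA+ RNA libraries (TruSeq Stranded mRNA, paired-end reads) of 8 samples were trimmed with Trim Galore, aligned with STAR to GRCh38 with GENCODE release 32 and quantified with RSEM by the authors. The deposited values are expected counts per gene, neither normalized nor filtered, 1 file per sample, and can be fractional where reads were shared among genes, as they were for 29 of the 83 genes. Samples were grouped by their titles.

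Gene symbols, types and exons came from GENCODE release 29, which held 58561 of the 60668 identifiers, since the authors' release was not used here. The members, role groups and other gene lists were chosen with earlier results of these data known. Expected counts were rounded and tested with edgeR 4.0.16 (R 4.3.3) by the quasi-likelihood test with TMM scaling, genes with more than 1 CPM (unscaled) in at least 4 of 8 libraries, and Benjamini-Hochberg adjustment over 15222 genes. CPM in the text are TMM-scaled, and the SE is the log2 fold change divided by the square root of F. On simulated data of 15222 genes the test called 100 of 100 genes changed by a log2 fold change of 3 differentially expressed, found 95 of 100 changed by 1 at an adjusted p below 0.05, with 17 false calls there. Only those genes were changed in the simulation, as many up as down. In the data 38.5% of all genes tested were called higher and 38.1% lower, so these rates may not carry over. Genes named were those called by the stricter rule, the 6 largest rises and 6 largest falls, the highest level per length in each role, FOXJ1, CCDC39, CCDC40, DNAI1, DNAH5, DNAH9, HYDIN and RSPH4A, and those next to the filter. Other genes were named after their values were seen. Alternatives were DESeq2 1.42.0, its size factors in edgeR, library size alone, a filter of more than 4 libraries, no filter, a replicate block, leaving out each library, and, chosen after seeing the data, CCDC39 summed.

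Depth was 38390696 to 54020506 counts per library, so that the floor of 3 counts used here was 0.0581 to 0.0748 CPM. Replicate numbers are not said to mark a common culture, so they were not taken as pairs. Same-numbered OMO and OMO+DOX samples did not deviate together in every pair, which does not exclude pairing.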

Additional observations from a re-analysis of the deposited data

Results flagged for a closer look

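A sample far from the others of its group, by Dixon's criterion at 95%, was found in 3 of the 50 groups of 4 values looked at, of which chance gives about 2.5. DNAH5 in OMO+DOX replicate 1 was the highest of its group at 0.414 CPM, the others being 0.0660, 0.0782 and 0.125 CPM. SPAG16 in OMO replicate 2 was the highest at 20.1 CPM, above 17.0, 17.0 and 17.4 CPM. CCDC39 (ENSG00000145075) in OMO replicate 4 was at 0.159 CPM, the other 3 untreated libraries being at 0.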

How the results depend on the processing

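Of 428 values of single genes under the alternatives, 400 kept their direction and side of the threshold, 25 lost and 3 gained the call, and none turned. The count of 3 differentially expressed genes fell to 1 when more than 1 CPM was asked in more than 4 libraries and rose to 9 with no filter. Leaving out a library gave 1 to 3 with the filter applied again (1 without OMO+DOX replicate 2) and 2 to 5 with the same genes tested (5 without OMO replicate 3). With no filter, 20 genes were higher at an adjusted p below 0.05 instead of 12, and 39 instead of 25 did not overlap between the groups. The median log2 fold change of the genes tested, -0.06, became 0.0636 by library size alone, which added 0.126 to all genes, -0.00579 with the filter of more than 4 libraries and -0.0181 with no filter. It ranged from -0.155 to 0.0907 over the libraries left out with the filter applied again and from -0.139 to -0.00680 with the same genes tested (-0.0852 and -0.0329 without OMO+DOX replicates 2 and 3). For other axonemal genes, 5 were higher by library size alone, and with no filter 6 were higher and 11 lower. With no filter 2 BBSome and transition zone genes were higher, and leaving out a library gave 2 to 5 higher there, 3 to 5 in intraflagellar transport and 3 to 5 among other axonemal genes. By library size alone 16 intraflagellar transport genes were lower instead of 21, and 12 BBSome and transition zone genes instead of 17. Leaving out a library, with the filter applied again, gave 18 to 23 and 13 to 17 lower. Low counts left 50 of the 83 genes without a test in the main analysis.

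The numbers of replicates were shared by both groups but are not said to mark a common culture. Deviations of same-numbered samples correlated between -0.240 and 0.314 (mean 0.114), and those of the 12 other pairs between -0.378 and 0.465 (mean -0.0415). With the replicate number as a block, 4 genes were differentially expressed (TEKT2 in addition), 12 were higher and 15 lower, and no single gene named by the rule crossed the 0.05 threshold.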
